A study of Rattus norvegicus with 49 samples.

Results

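The 10 genes described here make, conjugate, take up and sense bile acids in the hepatocyte: Cyp7a1, Cyp8b1, Cyp27a1, Cyp7b1, Slc27a5, Baat, Slc10a1, Slco1b2, Nr1h4 and Nr0b2. They were found on the array through the RefSeq accession of each probe, as 10 of 15154 named genes and 11 of 30367 probes. All 11 probes passed the filter on dim signal, which left 17661 probes. Each gene is given by its brightest probe, and Nr1h4 alone had a second probe.

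The samples were livers of F344 rats of both sexes, from an inbred strain, which were 7 to 8 weeks old at the start and received furan in corn oil by gavage on 5 days a week for 90 days. Furan, a contaminant of heated food, is turned into a reactive metabolite by a liver cytochrome P450. The treated groups received daily doses of 2, 0.5, 0.12 and 0.03 mg/kg, and the controls of each sex received the corn oil alone. Each group held 5 rats, except the males at 0.03 mg/kg with 4, and each rat gave 1 array of 49, on which Cy5-labelled liver RNA competed with Cy3-labelled universal rat reference RNA from mixed tissues. Values are log2 ratios of liver over reference, so that a difference of 1 is a doubling. Because the tissue is whole liver, fewer hepatocytes and less RNA per hepatocyte cannot be told apart.

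Bile acids are made from cholesterol in hepatocytes. In the neutral or classic route CYP7A1, the rate-limiting enzyme, starts on the sterol ring and CYP8B1 then directs the product towards cholic acid. In the alternative route CYP27A1 first oxidises the side chain and CYP7B1 hydroxylates the resulting oxysterol. SLC27A5 and BAAT then link the acid to coenzyme A and to taurine or glycine. SLC10A1 (NTCP, driven by sodium) and SLCO1B2 (an organic anion transporter) return bile acids from portal blood to the cell. The nuclear receptor FXR, encoded by Nr1h4, binds bile acids and induces Nr0b2, whose product SHP represses Cyp7a1 and Cyp8b1.

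The liver channel was well above background on 48 or 49 of 49 arrays for 9 of them and on 44 arrays for Cyp7b1, and no member spot was saturated. The reference channel was well above background for Cyp7a1 on 0 arrays and for Cyp7b1 on 35. A difference in Cyp7a1 between groups therefore rests on the liver channel. All 8 hepatocyte markers on the list, among them Alb and Ttr, passed the filter, and their mean log2 ratio lay between 5.78 and 7.87 on the male control arrays and between 6.41 and 7.52 on those of females.

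A single array and the slides stood apart before any comparison. On the array of animal 26, a male at 0.03 mg/kg, 5.06% of liver spots were well above background, against 37.9% to 71.1% on the other 48. Its log2 ratio was 0.09 for Cyp7a1, -0.01 for Cyp8b1, 1.45 for Slc10a1 and 2.42 for Slc27a5, and it was the lowest of all arrays for 9 of the 10 genes. For Cyp7b1, at 0.17, a female array at 0.12 mg/kg lay marginally lower. The results are therefore given with all 49 arrays and without this dim array. The arrays also lay on 8 slides, and all 10 members had a higher median ratio on slides 1 to 4 than on slides 5 to 8 over the 48 other arrays. The medians were 10.44 and 8.76 for Slc27a5, whose lowest array on slides 1 to 4 (9.49) lay above the highest on slides 5 to 8 (9.17). They were 7.86 and 6.92 for Baat and 5.17 and 3.35 for Cyp7a1, and for Nr0b2 they were closest, at 4.88 and 4.85. Slides 1 to 4 held 8 of the 10 control arrays and 3 of the 10 arrays at 2 mg/kg. The tests below therefore take slide as a block, and differences between arrays of the same slide stand beside them.

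The question of how the untreated sexes differ comes first. Cyp7b1, the oxysterol 7-alpha-hydroxylase, was higher in control males than in control females, and Cyp7a1 lay on the opposite side. On the 5 male control arrays the log2 ratio of Cyp7b1 was 2.65, 4.61, 4.78, 4.88 and 5.00. On the 5 female control arrays it was 1.52, 1.64, 2.08, 2.22 and 2.28. Every male lay above every female, and the lowest male was animal 6 on slide 8. The difference was 2.53 ± 0.38 (SE) on the log2 scale, 5.78-fold, with an adjusted p of 8.36e-06 (limma, Benjamini-Hochberg over 17661 probes). It was 2.46 ± 0.32 without the dim array. Within the 4 slides that held a control of each sex, males were higher by 2.50 to 3.36.

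Cyp7a1 had log2 ratios of 2.30, 4.41, 4.47, 5.08 and 5.64 in control males and of 5.17, 5.81, 5.82, 6.44 and 6.48 in control females. Of the males, 4 of 5 lay below every female and animal 2 overlapped with the lowest female. The fitted difference, males minus females, was -1.49 ± 0.56 (SE) with an adjusted p of 0.0721 (limma), which did not pass the threshold of 0.05. Without the dim array it was -1.57 ± 0.51 (adjusted p = 0.0239), a 2.96-fold higher level in females, and was called. Males were lower on 4 of 4 slides, by values from -2.03 to -0.17. The call without the dim array ended when male control 5 or 6 or female control 2 or 4 was also left out, which left 1 member called.

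Calls needed a fold change of 1.5 or more together with an adjusted p of 0.05 or less. Of all probes tested, 5.51% were called between the control sexes with 49 arrays and 6.42% without the dim array. Among the 10 members 1 was called with 49 arrays (Cyp7b1) and 2 without the dim array (Cyp7b1 and Cyp7a1). Baat, the conjugating transferase, was higher in males on 4 of 4 slides, by 0.33 to 0.86. Its fitted difference of 0.47 ± 0.11 (SE) without the dim array had an adjusted p of 0.00273 (limma) but was 1.38-fold and so not called. Slco1b2 was lower in males on 4 of 4 slides, by values from -0.80 to -0.08, and was not called (adjusted p = 0.758 with 49 arrays and 0.0913 without the dim array). The other 6 members had fitted differences between 0.11 and 0.56 with 49 arrays, none of them called.

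**Figure D1:**
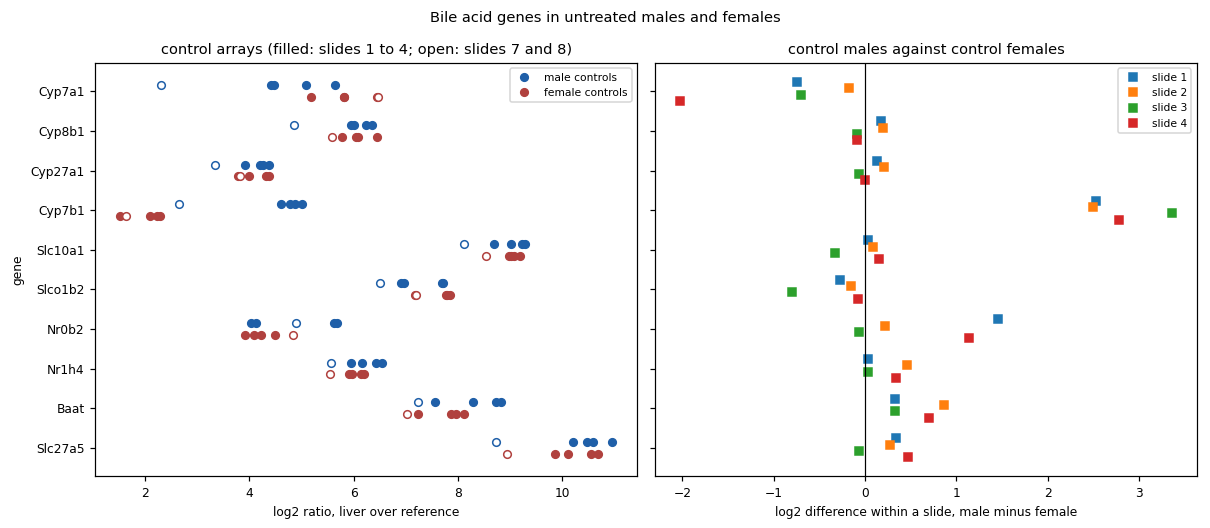
Left, log2 ratio of liver over reference (x axis) of the 10 genes (y axis) on the 5 control arrays of each sex, filled for slides 1 to 4 and open for slides 7 and 8. Right, male minus female log2 difference on each of the 4 slides that held both. Cyp7b1 separates the sexes on every slide (2.50 to 3.36), and Cyp7a1 lies below 0 on all 4 slides.

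The main question of the study was which doses of furan changed liver transcripts in each sex. In males at 2 mg/kg the members lay below their controls as a group. With 49 arrays 9 of 10 were below 0, with a median log2 difference of -0.68 against -0.02 over all probes, and 0 of 10 were called. Of all probes 3.81% were called in that comparison. An unadjusted p under 0.05 was found for 1 of 10 members (Cyp7b1) and for 4838 of the 17661 probes. Leaving out the dim array kept the members' median at -0.66, while the SE fell for all 10, and 6 of 10 were called, all of them lower: Slc27a5, Baat, Slco1b2, Slc10a1, Cyp8b1 and Cyp7b1. Of all probes 5.07% were then called, 471 of them higher and 424 lower. With neither the dim array nor the slide block, 2 members were called, Slco1b2 and Nr1h4, and 740 of the 17661 probes. With the block, leaving out a further array of these groups gave 3 to 7 members called, with 3 called without animal 84 or 87 at 2 mg/kg. The probes called in those further fits were not counted, so these member counts have no share over all probes beside them.

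**Figure D2:**
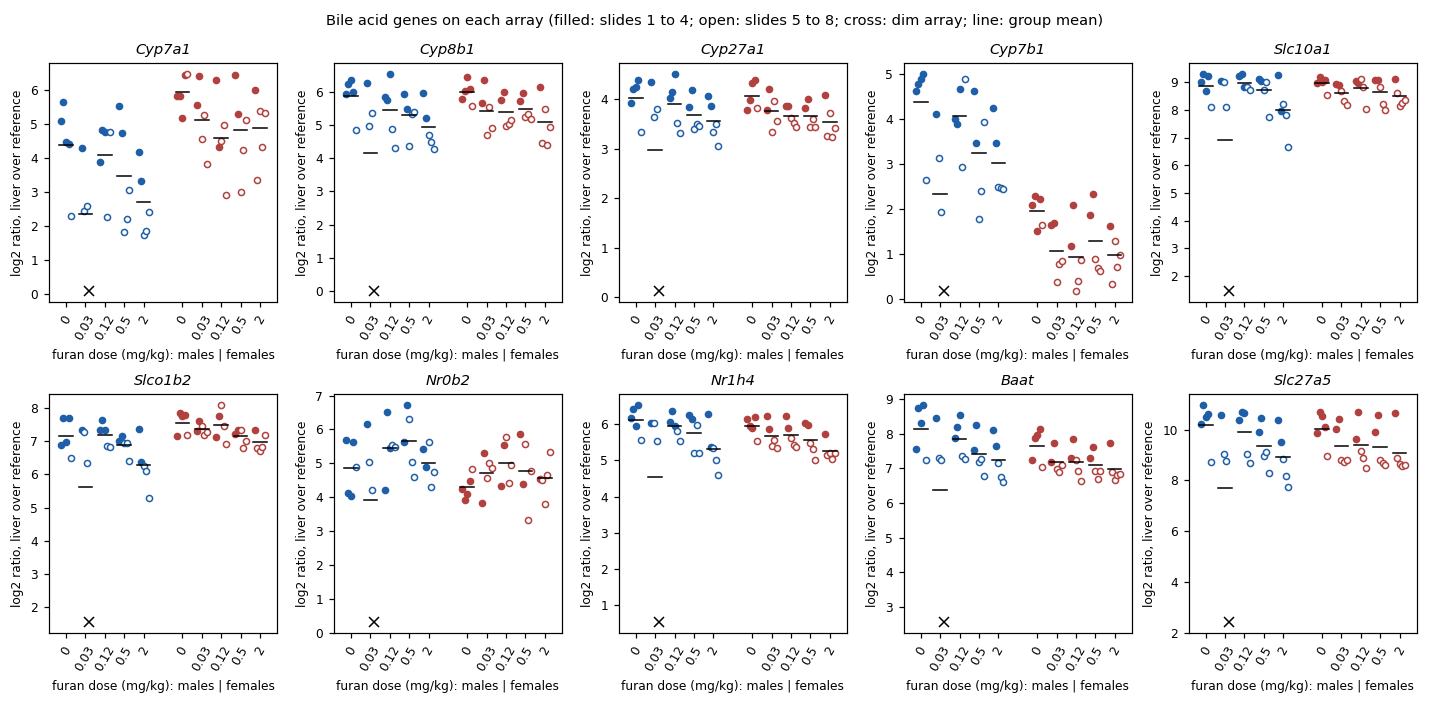
Log2 ratio of liver over reference (y axis) of each gene on each of the 49 arrays by dose in mg/kg (x axis), males in blue and females in red. Filled points are arrays of slides 1 to 4, open points those of slides 5 to 8, the cross is the dim array and the line is the group mean. In most panels open points lie below filled points of the same group, and the male 2 mg/kg mean lies below the male control mean for every gene but Nr0b2.

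The conjugating enzymes had the smallest adjusted p-values of the members in males at 2 mg/kg without the dim array. Slc27a5, which encodes the bile acid coenzyme A ligase, had log2 ratios of 8.73, 10.21, 10.49, 10.59 and 10.96 in control males and of 7.74, 8.16, 8.83, 9.49 and 10.39 at 2 mg/kg. At 2 mg/kg 2 of 5 males lay below every control, and the groups overlapped. The fitted difference was -0.76 ± 0.57 (SE) with 49 arrays (adjusted p = 0.41, limma) and -0.73 ± 0.12 without the dim array (adjusted p = 4.85e-05), a 1.66-fold lower level. Within the 3 slides that held both groups it was lower on each, by values from -1.10 to -0.57. Baat ranged from 7.24 to 8.82 in controls and was 6.60, 6.74, 7.14, 7.64 and 8.09 at 2 mg/kg, with 3 of 5 males below every control. Its difference was -0.64 ± 0.43 with 49 arrays and -0.63 ± 0.12 without the dim array (adjusted p = 0.000162, limma), and -1.18 to -0.64 within slides. Slc27a5 was called in 10 of 10 fits that left out a further array of these groups and Baat in 6, since its fold change lay close to 1.5.

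Both uptake carriers were also lower. Slco1b2 had log2 ratios of 6.50, 6.90, 6.97, 7.69 and 7.71 in control males and of 5.29, 6.09, 6.27, 6.36 and 7.37 at 2 mg/kg. Of the treated males 4 of 5 lay below every control, and animal 86 on slide 2 lay within their range. The fitted difference was -0.80 ± 0.49 (SE) with 49 arrays (adjusted p = 0.29, limma) and -0.79 ± 0.18 without the dim array (adjusted p = 0.00168), a 1.73-fold lower level that was called in 10 of 10 fits leaving out a further array. Slc10a1 had log2 ratios of 8.11, 8.69, 9.01, 9.23 and 9.28 in controls and of 6.66, 7.82, 7.97, 8.23 and 9.26 at 2 mg/kg. At 2 mg/kg 3 of 5 lay below every control, and animal 86 was level with the highest controls. Its difference was -0.69 ± 0.18 without the dim array (adjusted p = 0.00393, 1.62-fold lower) and was not called in 1 of 10 further fits. Within slides the range was wide, from -1.45 to -0.02.

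**Figure D3:**
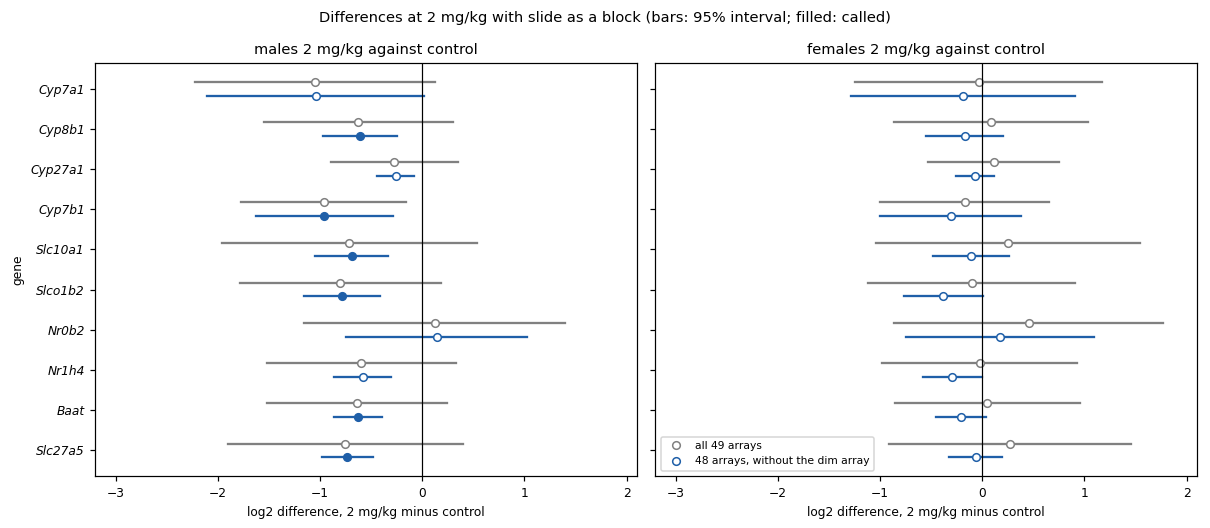
Log2 difference of 2 mg/kg minus control (x axis) for each gene (y axis) in males (left) and females (right), with slide as a block. Grey, all 49 arrays; blue, 48 arrays without the dim array; bars are 95% intervals and filled points were called. In males 6 blue points are filled, and in females none is.

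The 4 genes of conjugation and uptake are shown with the bases before their transcription start, since all 4 were called lower in males at 2 mg/kg without the dim array. RefSeq (build GRCr8) gave a promoter for 7 of the 10 members, and Cyp7a1, Cyp7b1 and Nr1h4 had no entry in the table used. The 250 bases before the start lie at chr6:106357945-106358194, minus strand for Slc10a1, chr4:176282334-176282583, plus strand for Slco1b2, chr5:68656138-68656387, minus strand for Baat and chr1:82699336-82699585, minus strand for Slc27a5. Each is printed 5′ to 3′ in the direction of the gene. Capitals mark AGGTCA, the core element bound by many nuclear receptors, and GTTAAT, part of the site of the hepatocyte factor HNF1. They also mark TATAAA, the letters of the TATA box. Each was searched on either strand and at any distance from the start within the window. Whether any match acts as a site was not tested.
Slc10a1: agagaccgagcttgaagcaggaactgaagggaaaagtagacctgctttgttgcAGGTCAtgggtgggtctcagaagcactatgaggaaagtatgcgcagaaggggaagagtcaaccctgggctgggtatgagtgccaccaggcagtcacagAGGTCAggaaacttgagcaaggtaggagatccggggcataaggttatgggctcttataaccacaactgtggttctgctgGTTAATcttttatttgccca
Slco1b2: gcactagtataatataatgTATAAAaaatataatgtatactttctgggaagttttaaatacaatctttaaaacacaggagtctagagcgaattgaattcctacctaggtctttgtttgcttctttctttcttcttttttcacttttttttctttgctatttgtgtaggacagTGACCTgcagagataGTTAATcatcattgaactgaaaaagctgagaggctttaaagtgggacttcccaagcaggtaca
Baat: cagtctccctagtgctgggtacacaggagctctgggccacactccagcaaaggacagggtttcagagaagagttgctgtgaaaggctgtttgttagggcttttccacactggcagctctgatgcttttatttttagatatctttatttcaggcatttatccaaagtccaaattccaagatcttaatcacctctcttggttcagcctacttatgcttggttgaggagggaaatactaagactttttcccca
Slc27a5: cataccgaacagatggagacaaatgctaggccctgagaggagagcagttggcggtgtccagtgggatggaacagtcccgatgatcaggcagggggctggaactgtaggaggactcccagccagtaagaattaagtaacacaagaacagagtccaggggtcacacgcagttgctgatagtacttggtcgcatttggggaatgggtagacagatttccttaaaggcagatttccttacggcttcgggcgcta
AGGTCA was found in 14.1% of the 33469 rat promoters of this length, GTTAAT in 6.45% and TATAAA in 12.9%. Slc10a1 held AGGTCA at 197 to 192 and at 99 to 94 bases before the start and GTTAAT at 20 to 15. Slco1b2 held AGGTCA on the opposite strand at 78 to 73, GTTAAT at 63 to 58 and TATAAA at 231 to 226. Baat and Slc27a5 held none of these letters in this window. The longer motifs searched on both strands were CAAGGTCA (LRH-1, overlapping AGGTCA; 1.33% of promoters), the HNF4A direct repeat of AGGTCA (0.0508%) and the FXR inverted repeat of it (0.0269%), each with 1 base between its copies. Of the 7 member promoters only that of Cyp27a1 held any of these, CAAGGTCA on the opposite strand at 236 to 229 bases before the start.

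Among the synthesis enzymes, Cyp7a1 had the largest fitted difference in males and did not pass the test. Its log2 ratios at 2 mg/kg were 1.75, 1.87, 2.43, 3.34 and 4.18, against 2.30 to 5.64 in controls, and 2 of 5 lay below every control. The difference was -1.05 ± 0.58 (SE) with 49 arrays (adjusted p = 0.237, limma; 95% interval -2.23 to 0.12) and -1.05 ± 0.52 without the dim array (adjusted p = 0.148). Within slides it ran from -1.46 to 0.14, lower on 2 of 3. Cyp7b1 had log2 ratios of 2.44, 2.47, 2.49, 3.45 and 4.23 at 2 mg/kg, against 2.65 to 5.00 in controls, and 3 of 5 lay below every control. Its difference was -0.97 ± 0.40 with 49 arrays (adjusted p = 0.102) and -0.96 ± 0.33 without the dim array (adjusted p = 0.0311, limma), a 1.94-fold lower level. It was lower on 3 of 3 slides but was called in 3 of 10 fits that left out a further array.

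Cyp8b1, the sterol 12-alpha-hydroxylase, had log2 ratios of 4.29, 4.50, 4.71, 5.20 and 5.96 at 2 mg/kg, against 4.85 to 6.35 in controls. Its difference was -0.63 ± 0.45 (SE) with 49 arrays (adjusted p = 0.391, limma) and -0.61 ± 0.18 without the dim array (adjusted p = 0.0115), and it was lower on 3 of 3 slides. Cyp27a1, the mitochondrial sterol 27-hydroxylase, differed least of the enzymes. Its difference of -0.26 ± 0.09 without the dim array passed the p threshold (adjusted p = 0.0295, limma) at a 1.20-fold lower level and was not called.

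The nuclear receptors did not move alike in males. The brighter Nr1h4 probe had log2 ratios of 4.61, 5.01, 5.36, 5.38 and 6.28 at 2 mg/kg, and 4 of 5 lay below every control (5.57 to 6.54). Its difference without the dim array was -0.58 ± 0.14 (SE; adjusted p = 0.00203, limma), 1.498-fold lower and just short of the fold threshold. The dimmer Nr1h4 probe gave -0.59 ± 0.15, 1.506-fold lower, and was called (adjusted p = 0.00404), so that the pair of probes had nearly equal differences on either side of the threshold. Nr0b2 had log2 ratios of 4.31, 4.76, 4.88, 5.42 and 5.64 at 2 mg/kg, within the control range of 4.03 to 5.68. Its difference was 0.12 ± 0.63 with 49 arrays (95% interval -1.15 to 1.40) and 0.14 ± 0.44 without the dim array, and within slides it ran from -0.74 to 1.29.

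**Figure D4:**
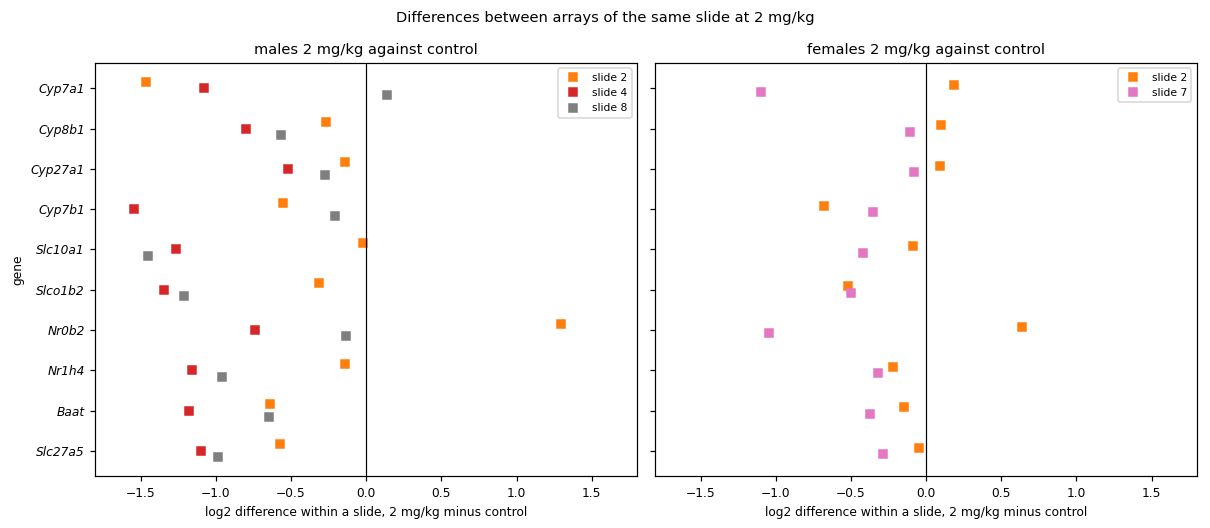
Log2 difference of 2 mg/kg minus control between arrays of the same slide (x axis) for each gene (y axis), in males on 3 slides (left) and in females on 2 slides (right). In males 8 genes lie below 0 on all 3 slides, and Cyp7a1 and Nr0b2 on 2 of 3. The share of all probes with these patterns was not counted.

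In females at 2 mg/kg no member was called in either fit. With slide as a block and 49 arrays the 10 differences lay between -0.17 and 0.45, 6 above 0 and 4 below, with a median of 0.07 against 0.01 over all probes, of which 0.657% were called. When the dim array was left out, 9 of 10 lay below 0, between -0.38 and -0.07, with a median of -0.18, and 1.4% of all probes were called. The sign of 5 members in females (Cyp8b1, Cyp27a1, Slc10a1, Baat and Slc27a5) therefore rested on the dim male array, which shares slide 8 with 2 female arrays at 2 mg/kg. Without the block the difference of the group means was negative for 9 of 10 members, from -1.06 for Cyp7a1 to -0.47 for Slc10a1. Of the 5 female controls 4 lay on slides 1 to 4, and of the 5 females at 2 mg/kg 4 lay on slides 5 to 8, and the part of this layout in the unblocked differences was not tested.

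In females 4 of 5 arrays at 2 mg/kg lay below every control for Cyp8b1, Cyp27a1, Cyp7b1, Nr1h4, Baat and Slc27a5, and the fifth was animal 90 on slide 2. These ratios are not adjusted for slide, and the share of all probes with such a separation was not counted. With the block and without the dim array, the differences of these genes ran from -0.31 (Cyp7b1) to -0.07 (Slc27a5), none of them called. On the 2 slides that held both female groups, 6 members were lower at 2 mg/kg on each. Each slide compares 1 array with 1 array, and the share of all probes lower on both was not counted, so the count says nothing particular to the members. Slco1b2 was lower by -0.52 and -0.50, Nr1h4 by values from -0.32 to -0.22 and Baat from -0.37 to -0.15. Slco1b2 had log2 ratios of 7.17, 7.20, 7.77, 7.79 and 7.84 in female controls and of 6.70, 6.80, 6.83, 7.18 and 7.33 at 2 mg/kg, with 3 of 5 below every control. Its difference of -0.38 ± 0.19 (SE) without the dim array had an adjusted p of 0.213 (limma). Cyp7a1 ranged from 3.35 to 6.00 at 2 mg/kg, against 5.17 to 6.48 in controls, and its difference of -0.19 ± 0.54 left an interval from -1.29 to 0.91. The dimmer Nr1h4 probe had a difference of -0.53 ± 0.16 (adjusted p = 0.0395), 1.45-fold lower, and was not called.

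The difference between the sexes in the response to 2 mg/kg was tested as an interaction. All 10 members lay below 0 (males minus females) with 49 arrays, with a median of -0.70 against 0.00 over all probes, and 0 were called, at 0.108% of all probes. None of the 10 had an unadjusted p under 0.05, against 2579 of the 17661 probes. The 48 other arrays again put all 10 below 0, with a median of -0.43, and 1 was called, Slc27a5 at -0.67 ± 0.17 (SE; adjusted p = 0.0392, limma), at 1.09% of all probes. That call was absent when slide was not fitted or was a random block, and it held in 8 of 20 fits leaving out a further array. An effect that was called in males is thus not shown to differ from that in females for the other 5 called members.

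At the lower doses no member was called in either sex, and the controls are shared between doses. In males at 0.5 mg/kg 9 of 10 members lay below 0, with a median of -0.36 (0.142% of all probes called), and without the dim array the median was -0.19, with a range from -0.59 to 1.02. In males at 0.12 mg/kg 5 were above and 5 below 0, with a median of 0.02 (0.17% called), or 0.0085 without the dim array. In males at 0.03 mg/kg all 10 were below 0 with a median of -1.43 and 9 had an unadjusted p under 0.05, at 0% called of all probes, of which 4316 had an unadjusted p under 0.05. That pattern rested on the dim array, without which the median was -0.08 and 3 of 10 lay above 0. In females the medians were -0.07 at 0.5 mg/kg (0.017% called), -0.15 at 0.12 mg/kg (0.00566% called) and 0.08 at 0.03 mg/kg (0% called, 780 probes with an unadjusted p under 0.05). Without the dim array they were -0.16, -0.12 and -0.02, with 5, 2 and 3 of all probes called, so the sign at 0.03 mg/kg turned.

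Group means by dose, not adjusted for slide, show how far the pair of 7-alpha-hydroxylases varied. Cyp7a1 in males had mean log2 ratios of 4.38 ± 1.27 (SD, n = 5) in controls, 2.36 ± 1.73 (n = 4) at 0.03 mg/kg with the dim array, 4.11 ± 1.10 at 0.12 mg/kg, 3.47 ± 1.60 at 0.5 mg/kg and 2.71 ± 1.03 at 2 mg/kg (n = 5 each). In females its means were 5.95 ± 0.54 in controls and 5.13 ± 0.98, 4.60 ± 1.21, 4.82 ± 1.29 and 4.88 ± 1.04 from the lowest to the highest dose (SD, n = 5 each). Neighbouring doses in females differed by less than the larger of their SDs. Cyp7b1 in males had means of 4.38 ± 0.98 in controls and 2.34 ± 1.70 (with the dim array), 4.07 ± 0.76, 3.24 ± 1.15 and 3.02 ± 0.80 from the lowest to the highest dose. In females the means were 1.95 ± 0.35 in controls and between 0.94 and 1.28 at the 4 doses, where 3 to 5 of 5 arrays per group were well above background. Male controls thus had the highest mean of Cyp7b1 and female controls that of Cyp7a1.

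An F test over the 4 doses together asked whether any dose differed from the controls of its sex. In males it called Cyp7b1 (adjusted p = 0.0305, limma) and the dimmer Nr1h4 probe (0.0345) with 49 arrays, that is 1 of 10 members by their brightest probe, at 12.1% of all probes. On the 48 other arrays it called 6 of 10, Slc27a5 (adjusted p = 0.000109), Baat (0.000924), Slco1b2 (0.00302), Slc10a1 (0.00392), Nr1h4 (0.0123) and Cyp27a1 (0.0315), at 18.2% of all probes, and Cyp7b1 was no longer called (0.0784). Leaving out animal 87 at 2 mg/kg as well gave 3. Without the slide block it called 0 members in either case. In females it called 0 members, at 0.804% of all probes.

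The other genes of the pathway were taken from fixed lists. Of the 14 genes listed as other synthesis enzymes, 13 lay below 0 in males at 2 mg/kg, with a median of -0.46, and 0 were called. Without the dim array 2 were called lower, Akr1d1 (delta4-3-oxosteroid reductase, -0.74 ± 0.16 SE, adjusted p = 0.00113, limma) and Hsd17b6 (-0.73 ± 0.16, adjusted p = 0.000792). In females 10 of 14 were above 0 with 49 arrays and 6 of 14 without the dim array, and 0 were called in either fit. Between the control sexes Hsd3b7, which oxidises the product of either 7-alpha-hydroxylase, was higher in males by 0.90 ± 0.27 (adjusted p = 0.0212, limma) and was the 1 enzyme called. Without the dim array Akr1d1 was also called higher in males (1.19 ± 0.16) and Akr1c14 lower (-0.71 ± 0.12).

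Of the 5 other uptake carriers all 5 lay below 0 in males at 2 mg/kg, with a median of -0.43. Slco2b1, an organic anion transporter, was called at -0.92 ± 0.31 (SE; adjusted p = 0.0399, limma), and without the dim array Slco1a1 was called as well (-0.68 ± 0.15). In females 0 were called. The interaction was called for Slco2b1 without the dim array (-0.91 ± 0.18, adjusted p = 0.00854). Of the 9 export genes 8 were on the array and 5 passed the filter. Among these 3 lay above 0 and 2 below in males at 2 mg/kg, with a median of 0.02. Abcg5, which moves sterols into bile with Abcg8, was called higher in males (2.04 ± 0.55, adjusted p = 0.0105, limma), and 0 were called in females. Of the 13 regulators tested, 10 lay below 0 in males at 2 mg/kg, with a median of -0.20, and 1 was called, Ppara, the fatty acid receptor, which was higher by 0.88 ± 0.20 (adjusted p = 0.00273). Onecut1, a liver transcription factor, was lower in control males than in control females by -1.44 ± 0.46 (adjusted p = 0.0296).

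Markers of cells other than hepatocytes moved in the same males. Of 6 bile duct markers tested, all 6 lay above 0 at 2 mg/kg with a median of 0.73. Of these 3 were called, Epcam (0.92 ± 0.17 SE), Krt19 (0.76 ± 0.23) and Cftr (0.94 ± 0.20), and Spp1 was added without the dim array (0.69 ± 0.19). The liver channel was well above background on only 14 of 49 arrays for Cftr, against 45 for Epcam, 40 for Krt19 and 48 for Spp1. Their mean log2 ratio lay between -1.69 and -0.35 at 2 mg/kg and between -2.08 and -1.54 in male controls. In females 4 of 6 lay above 0 with 49 arrays (median 0.30) and 6 of 6 without the dim array (median 0.41). There 0 were called with 49 arrays and Epcam alone without the dim array, and the interaction called 0 of 6 in either fit. Of the 8 hepatocyte markers all 8 lay below 0 in males, with a median of -0.43, and Tat, tyrosine aminotransferase, was called (-1.05 ± 0.33). The hepatocyte list and the members thus lay on the same side, and the part of the cell makeup in the members' differences was not tested.

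Stellate cell markers had a median of 0.20 in males, with 0 of 10 called, or 3 (Lrat, Timp1 and Col3a1) without the dim array. Macrophage markers had a median of -0.28 with 0 of 10 called in either fit, and red cell markers a median of -0.66 with Slc4a1 called of 5 (-0.71 ± 0.23 SE), and Hbb as well without the dim array (-0.77 ± 0.29). Cyp7a1 follows a daily rhythm in rodents, and clock genes also moved in males at 2 mg/kg. Of 10 clock genes tested 5 were called, Dbp higher (0.94 ± 0.25 SE) and Per2 (-0.76 ± 0.25), Npas2 (-0.72 ± 0.17), Cry1 (-0.63 ± 0.20) and Nfil3 (-0.62 ± 0.11) lower, and 0 in females. Their part in the Cyp7a1 values was not tested.

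Some pairs of members varied together within groups and others did not. After removing group and slide means, Pearson's r over the 48 arrays without the dim array ran from -0.077 (Cyp27a1 with Cyp7b1) to 0.81 (Slc10a1 with Slco1b2) over the 45 pairs, with a median of 0.30. It was over 0.5 for 13 pairs and below 0 for 2. The next highest pairs were Slc10a1 with Nr1h4 and Cyp27a1 with Baat, at 0.73 each. With the dim array included these 3 pairs had an r of 0.98 each, so those values rested on it. The 3 genes most like Slc10a1 over 49 arrays were Cyp4f4, Cyp2j4 and Kyat3 (r of 0.99 each), at 0.89, 0.84 and 0.80 without the dim array. The 5 most like Cyp7a1 were Pold4 (0.79), Babam2 (0.75), Sectm1b (0.74), Mri1 (0.73) and Stx8 (0.71), at 0.64 to 0.74 without the dim array. The arrays in each of these values share slides and the reference RNA.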

How the data were processed

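Liver RNA of 49 rats was measured on 2-colour Agilent arrays, 1 array a rat. The authors extracted the scans with version 10.7.3.1 of Agilent Feature Extraction. The deposited files hold spot and background intensity as pixel medians, a log10 ratio, and score marks for background and outliers. The authors' series matrix holds log2 ratios with unstated centring (column medians from -0.06 to -0.03). Of 49 arrays 46 matched a matrix column of their group best, but only 7 their own, so that matrix was fitted without the slide block, unlike the other alternatives. The direction, liver over reference, follows the dyes per the labels, and the lowest correlation between arrays was 0.45.

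The intensities were background-corrected (normexp, offset 50) and loess-normalised in limma 3.58.1 (R 4.3.3), outlier spots were dropped and spots of a probe averaged. Tested probes had a liver signal well above background on 4 or more arrays of some group, and symbols came from RefSeq (GRCr8; 18004 probes). The model held a mean per group and slide as a fixed block, with Benjamini-Hochberg adjustment. Each rat is a replicate, and the number of arrays limits the precision. The 10 members were named by their brightest probe, pathway genes where called at 2 mg/kg or between the control sexes, at most 5 a list. Members and lists were chosen with earlier results of these data known. Alternatives covered the block, arrays, normalisation, filter, probe choice and matrix. The fit was tested on simulated data.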

Additional observations from a re-analysis of the deposited data

Results flagged for a closer look

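Of 100 groups of 4 or 5 arrays (10 members in 10 groups), 10 held an array far from the rest of its group, where chance gives about 1 in 20 groups. The dim array, animal 26 at 0.03 mg/kg, lay far below the other 3 males for Cyp27a1 (0.12), Slc10a1 (1.45) and Nr1h4 (0.52). Male control 6 lay far below the other 4 male controls for Cyp8b1 (4.85) and Cyp7b1 (2.65), and it is the male control on slide 8. Slc10a1 was low in male 68 at 0.5 mg/kg (7.76) and in female 51 at 0.12 mg/kg (8.05). Female 90 at 2 mg/kg lay far above the other 4 of its group for Nr1h4 (5.74), Baat (7.72) and Slc27a5 (10.65), and it is the array of that group on slide 2. The reasons were not tested.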

How the results depend on the processing

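Cyp7b1 between the control sexes was called under every alternative that tested it. The strict filter removed Cyp7a1 and Cyp7b1, which left 0 members called. Other counts depended on the setting. In males at 2 mg/kg the members called were 6 without the dim array (895 of all 17661 probes called), 2 without it and the block (740 probes), 1 with the scanner log ratio (Baat; 1021 probes), 4 with array weights (632 probes) and 4 with the liver channel alone (493 probes), against 0 members and 673 probes. The F test in males called 6 without the dim array, 4 with array weights, 5 with the liver channel alone, and 0 with no slide block, with neither block nor dim array, with median centring, the scanner log ratio, the series matrix, the strict filter and each sex alone. The interaction called 1 without the dim array (192 probes). The control sexes gave 2 without the dim array (1134 probes), with median centring (1545 probes), array weights (1147 probes) and the liver channel (544 probes). Starting without the dim array, chosen after seeing the data, no slide block gave 2 in males at 2 mg/kg, 0 for the interaction, 1 between control sexes and 0 for the F test, and a random block gave 0 for the interaction.

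Leaving out 1 array of the groups compared gave 0 members called in males at 2 mg/kg in all 10 fits, 1 to 2 between control sexes (2 without male control 2), 0 to 8 in males at 0.03 mg/kg (8 without 22, 25 or 27) and 0 to 8 for the F test in males (0 without male control 5, or 84 or 87 at 2 mg/kg; 8, 2 and 3 without 22, 25 and 27; 6 without 26). Starting without the dim array the ranges were 3 to 7 in males at 2 mg/kg (3 without 84 or 87), 0 to 2 for the interaction, 1 to 2 between control sexes and 3 to 7 for the F test (3 without 87). Probes called were not counted in these fits. Animal numbers shared by a male and a female were not taken to pair them: over 8 such numbers r ran from -0.27 to 0.57 and was over 0.1 for 6. With the animal number as a replicate block the members called were 0, 0, 1 and 1 in males at 2 mg/kg, for the interaction, between control sexes and for the F test, while the probes called for the interaction rose from 19 to 35.

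In females at 2 mg/kg the sign turned with no slide block (with or without the dim array) for Cyp8b1 -0.90, Cyp27a1 -0.51, Slc10a1 -0.47, Baat -0.67 and Slc27a5 -0.97, with slide as a random block for Cyp8b1 -0.058 and Baat -0.057, without the dim array for Cyp8b1 -0.17, Cyp27a1 -0.070, Slc10a1 -0.11, Baat -0.21 and Slc27a5 -0.066, with median centring for Cyp8b1 -0.081, Cyp27a1 -0.021, Cyp7b1 0.069 and Baat -0.054, with scanner log ratio for Cyp7a1 0.34, Cyp27a1 -0.0095, Slco1b2 0.13 and Baat -0.15. It also turned in the series matrix for Cyp8b1 -0.88, Cyp27a1 -0.44, Slc10a1 -0.43, Baat -0.63 and Slc27a5 -1.08, with array weights for Cyp7a1 0.11, Cyp8b1 -0.14, Cyp27a1 -0.044, Slc10a1 -0.10, Baat -0.19 and Slc27a5 -0.071, with the liver channel alone for Slc10a1 -0.17 and Baat -0.17, with each sex on its own for Cyp8b1 -0.15, Cyp27a1 -0.11, Slc10a1 -0.17, Baat -0.30 and Slc27a5 -0.12. Between the control sexes it turned with no slide block (with or without the dim array) for Cyp8b1 -0.11, Cyp27a1 -0.041 and Slc10a1 -0.099, without the dim array for Slc10a1 -0.082, with median centring for Cyp8b1 -0.21, Cyp27a1 -0.27 and Slc10a1 -0.24, with scanner log ratio for Slco1b2 0.76. It also turned in the series matrix for Cyp27a1 -0.044, with array weights for Slc10a1 -0.087, with the liver channel alone for Cyp8b1 -0.11, Cyp27a1 -0.21, Slc10a1 -0.071 and Slc27a5 -0.22. For the interaction it turned with no slide block (with or without the dim array) for Cyp27a1 0.057, in the series matrix for Cyp8b1 0.23, Cyp27a1 0.16, Baat 0.056 and Slc27a5 0.26, with array weights for Nr0b2 0.045. Leaving out 1 array also turned the sign, with ranges of -0.041 to 0.17 for Baat in females at 2 mg/kg, -0.22 to 0.46 for Cyp7a1 in females at 2 mg/kg, -0.051 to 0.21 for Cyp8b1 in females at 2 mg/kg, -0.13 to 0.40 for Nr0b2 in males at 2 mg/kg, -0.15 to 0.086 for Nr1h4 in females at 2 mg/kg, -0.053 to 0.25 for Slc10a1 in the control sexes, -0.29 to 0.035 for Slco1b2 in females at 2 mg/kg. None of these values was called, and the causes were not tested.

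Median centring moved the median of all probes to -0.17 between the control sexes, where the members' median was -0.10, and to 0.19 for the interaction, where it was -0.39. The precision is limited by 4 or 5 arrays a group, and Cyp7a1 and Cyp7b1 also by a dim reference channel.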
